A study of Mus musculus with 11 samples.

Results

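Nuclear-encoded oxidative phosphorylation genes were examined across 4 murine cell lines of melanoma progression. The genes were chosen by a rule on their symbols, set with earlier results of these data known: the Ndufa, Ndufb, Ndufc, Ndufs, Ndufv and Ndufaf genes, Sdha to Sdhd and the Sdhaf genes, the Uqcr genes, the numbered Cox genes, the Atp5 genes, and Sco1, Sco2, Surf1, Cycs, Cyc1, Ppargc1a, Ppargc1b, Tfam and Nrf1. A deposited value was at hand for 104 of them among 14272 genes in all. The mouse annotation holds 126 genes that match these symbols, and the other 22, of which 7 carry pseudogene symbols ending in -ps, were not analysed here. Ndufb1-ps, which carries such a symbol too, had a value and is counted among the complex I subunits. The symbol pattern leaves out some genes of the same complexes, such as Cox4i1 and Ndufab1, which are given separately.

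Total RNA, depleted of ribosomal RNA, was sequenced from melan-a, a line of immortalized nonmalignant melanocytes syngeneic to C57Bl/6 mice, and from its derivatives 4C (pre-malignant), 4C11- (melanoma without metastasis) and 4C11+ (melanoma that spreads to the lung). The derivatives were obtained by repeated rounds of detachment and re-adhesion. Melan-a and 4C11+ cells look epithelial, and 4C and 4C11- cells look mesenchymal. Melan-a was represented by replicates 2 and 3 and the derivatives by 3 libraries each. Every line is a single cell line whose libraries came from separate cultures, so that p-values here measure only the spread between cultures. That spread was estimated over all lines together. Leaving out a library of a line not compared can therefore change a p-value but not the difference. Melan-a was grown with 200 nM PMA, a phorbol ester that activates protein kinase C, and the other lines without it, so that line and medium cannot be told apart in any comparison with melan-a. All lines otherwise shared the same serum-containing medium.

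Oxidative phosphorylation takes place in the inner mitochondrial membrane. Complex I accepts electrons from NADH and complex II accepts them from succinate. Both pass them by ubiquinone to complex III, then by cytochrome c to complex IV, which reduces oxygen, and the proton gradient built on the way drives the ATP synthase. Most subunits and all assembly factors are nuclear-encoded, a few core subunits are encoded by mitochondrial DNA (mtDNA), and coactivators of the PGC-1 family together with NRF1 and ESRRA are the best known activators of the nuclear genes. In melanocytic cells Ppargc1a, which encodes PGC-1alpha, is a known target of the lineage factor Mitf.

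The deposited values are log2 CPM (read counts scaled to the size of the library), not divided by gene length, so that levels were compared between lines and never between genes. All 11 libraries share 1 highest value, as after quantile normalization, so that values may depend on rank and not on scaled counts alone. Depth is not stated in the files, and steps among the lowest values put 1 CPM at roughly 3.50 to 7.42 reads, depending on the library. Only Ppargc1a was at or below 3 reads in any library, and 103 members were above 3 reads in all 11. Within-line correlations across genes were 0.907 for melan-a, 0.948 to 0.974 for 4C, 0.888 to 0.971 for 4C11- and 0.955 to 0.981 for 4C11+. Melanocyte markers (Tyr, Tyrp1, Dct, Pmel, Mlana, Mitf, Sox10) summed to 1744 and 8960 CPM in melan-a, 3.52 to 6.50 CPM in 4C, 3.01 to 11.5 CPM in 4C11- and 10598 to 12884 CPM in 4C11+. Tyr was at -0.25 and 1.29 and Pmel at 2.41 and 2.95 in melan-a, and at 8.39 to 8.70 and 11.72 to 12.20 in 4C11+. The fibroblast and mesenchymal genes Col1a1 and Pdgfra summed to 1629 to 2159 CPM in 4C and 4C11- and to 7.69 to 85.6 CPM in melan-a and 4C11+. Csf1r and Lyz2 of leukocytes summed to 3.62 to 38.7 CPM in any library, and Ptprc, Krt5, Krt14, Epcam, Pecam1, Kdr and Col1a2 were not analysed here. All 7 melanocyte markers were lower in 4C than in melan-a and higher in 4C11+ than in 4C11-, and their part in the results below was not tested. In bulk RNA, fewer cells that express a gene and less RNA per cell cannot be told apart.

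Promoter windows show which letters stand near the start sites of genes the results turn on. Windows of 300 bases, from 250 before the RefSeq start to 50 from it, were at hand for 85 of the 104 genes on GRCm38.p6. They are shown for Ppargc1a, the gene with the widest range of values (chr5:51567676-51567975, minus strand), for Cycs (chr6:50566520-50566819, minus strand), Uqcrc1 (chr9:108936398-108936697, plus strand), Cox10 (chr11:64079423-64079722, minus strand) and Atp5g3 (chr2:73911277-73911576, minus strand). Each sequence runs 5′ to 3′ on the strand of the gene, and capitals mark exact matches to the searched letters.
Ppargc1a: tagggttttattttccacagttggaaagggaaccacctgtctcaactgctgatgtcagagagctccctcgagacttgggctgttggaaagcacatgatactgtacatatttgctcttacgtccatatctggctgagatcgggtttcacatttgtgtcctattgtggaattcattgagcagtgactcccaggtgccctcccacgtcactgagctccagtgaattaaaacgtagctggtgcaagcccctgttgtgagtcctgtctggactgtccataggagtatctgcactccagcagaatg
Cycs: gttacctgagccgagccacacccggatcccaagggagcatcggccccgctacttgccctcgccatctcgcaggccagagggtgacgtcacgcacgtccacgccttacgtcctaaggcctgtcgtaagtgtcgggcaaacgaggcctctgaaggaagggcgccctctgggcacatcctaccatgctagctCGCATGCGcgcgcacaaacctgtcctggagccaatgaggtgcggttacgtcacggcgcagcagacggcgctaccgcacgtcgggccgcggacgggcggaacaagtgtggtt
Uqcrc1: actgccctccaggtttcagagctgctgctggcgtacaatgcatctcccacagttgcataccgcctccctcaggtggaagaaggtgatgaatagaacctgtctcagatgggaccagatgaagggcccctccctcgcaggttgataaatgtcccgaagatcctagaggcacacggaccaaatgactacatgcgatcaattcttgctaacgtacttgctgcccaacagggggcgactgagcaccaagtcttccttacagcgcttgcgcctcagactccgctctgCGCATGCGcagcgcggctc
Cox10: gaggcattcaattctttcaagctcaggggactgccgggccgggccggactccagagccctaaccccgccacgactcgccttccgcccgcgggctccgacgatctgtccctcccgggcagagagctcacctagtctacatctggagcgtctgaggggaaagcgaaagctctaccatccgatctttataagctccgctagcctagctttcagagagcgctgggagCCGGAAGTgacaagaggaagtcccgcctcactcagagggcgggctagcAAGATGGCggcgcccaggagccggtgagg
Atp5g3: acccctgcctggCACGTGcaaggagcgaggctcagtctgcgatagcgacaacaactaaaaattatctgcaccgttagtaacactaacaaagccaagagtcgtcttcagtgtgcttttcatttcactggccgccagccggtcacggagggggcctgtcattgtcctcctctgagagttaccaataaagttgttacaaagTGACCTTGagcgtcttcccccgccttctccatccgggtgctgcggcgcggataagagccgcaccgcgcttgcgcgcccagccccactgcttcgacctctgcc

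In the window of Cycs the capitals are the NRF1 core CGCATGCG, which begins 61 bases before the start site, and in Uqcrc1 the same letters begin 31 bases after it. Cox10 holds the ETS motif of GABP, CCGGAAGT, 27 bases before the start and the YY1 motif AAGATGGC 21 bases after it. Atp5g3 holds TGACCTTG, the reverse complement of the ESRRA half-site CAAGGTCA, 52 bases before the start and the E-box CACGTG 238 bases before it. None of these letters was found in the window of Ppargc1a, which says only that these exact letters are not in this window. Other letters, among them variants of the E-box, were not searched. The 5 motifs were searched on both strands as exact letters, and the printed matches do not overlap each other.

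NRF1 letters stood in 12 of the 85 windows (14.1%), in 4.40% of the windows of the 9928 deposited genes that had one, and in 1.87% of all 32851 windows. GABP letters stood in 11.8% of the members' windows, against 9.39% of the deposited genes' and 3.89% of all windows. YY1 letters were in 12.9%, against 5.41% and 2.75%, and ESRRA letters in 4.71%, against 1.24% and 1.56%. The E-box was in 5.88%, against 11.7% and 7.15%. These matches are descriptions of the windows and not binding sites. Cycs, Uqcrc1, Cox10 and Atp5g3 were all called higher in 4C11+ against the other lines, as were 18.3% of all genes. Of members with NRF1 letters 3 of 12 were so called, and of those without 31 of 73. For GABP it was 3 of 10 and 31 of 75, and for ESRRA 2 of 4 and 32 of 81. For YY1 it was 5 of 11 and 29 of 74, and for the E-box 1 of 5 and 33 of 80. Whether letters and calls go together was not tested.

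The 104 genes stood at their highest in 4C11+ and at their lowest in 4C more often than in any other line. The line mean was highest in 4C11+ for 70 genes (67.3%, against 35.5% of all genes), in melan-a for 19, in 4C11- for 12 and in 4C for 3. It was lowest in 4C for 60 (57.7%, against 25.3% of all genes), in melan-a for 21, in 4C11- for 19 and in 4C11+ for 4. The median log2 value of the 104 genes was 6.39 and 6.25 in the melan-a libraries, 6.22, 5.99 and 6.04 in 4C, 6.57, 6.29 and 6.14 in 4C11-, and 6.72, 6.87 and 6.42 in 4C11+. The libraries overlapped, since 4C11- replicate 1 stood above 4C11+ replicate 3. Beside these, the medians of the cytosolic ribosomal protein genes were 8.98 and 8.97 in melan-a, and ranged from 8.54 to 8.87 in 4C, from 8.86 to 9.06 in 4C11- and from 8.87 to 9.13 in 4C11+.

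**Figure D1:**
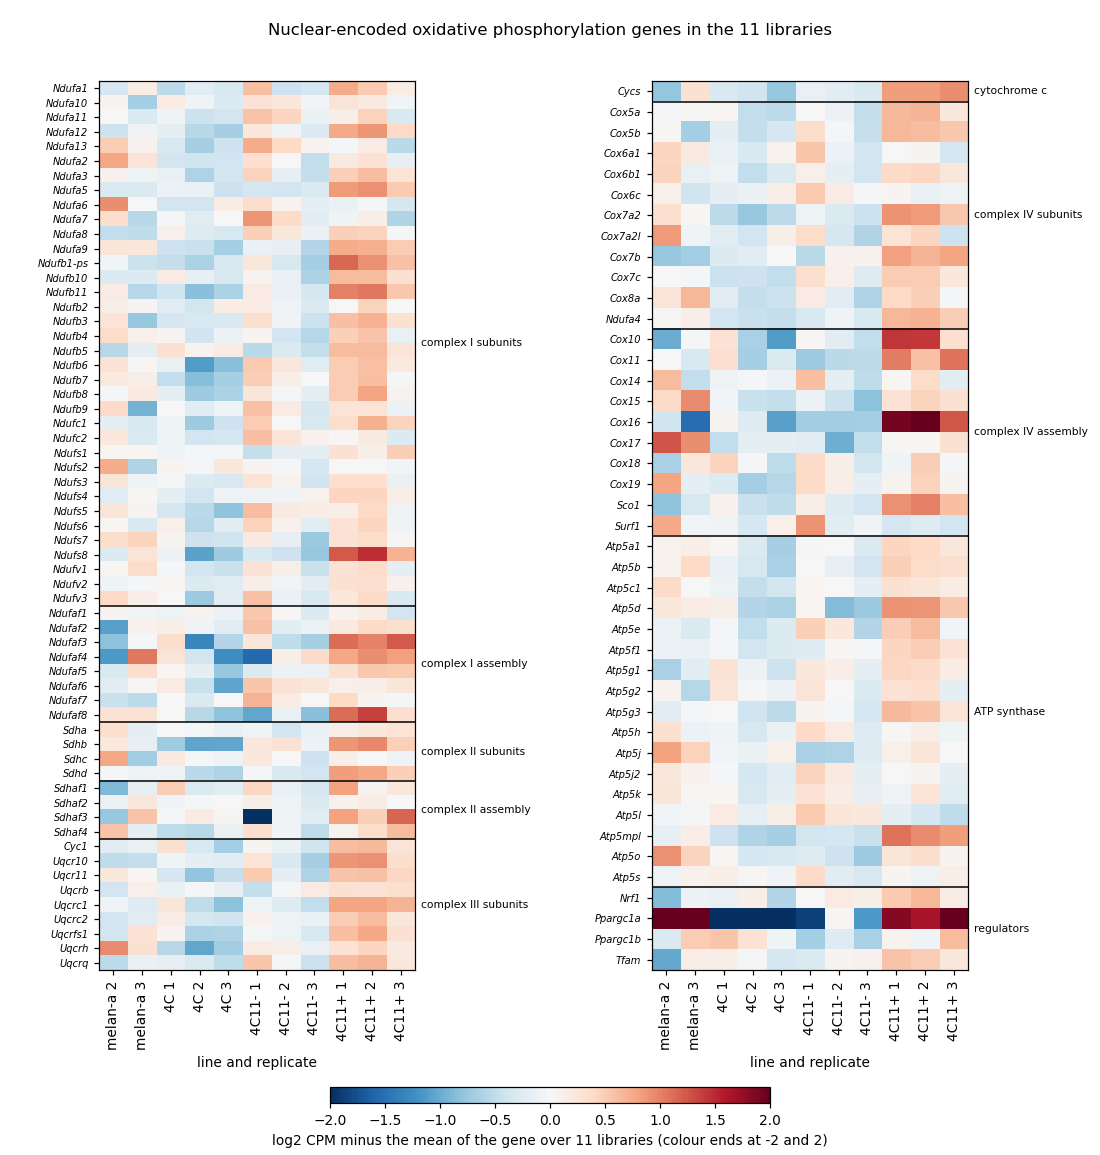
Heat maps of the 104 genes (one line per gene, grouped by complex) in the 11 libraries (columns), where colour is the log2 CPM value minus the mean of the gene over the 11 libraries and ends at -2 and 2. Most lines are red in the 3 columns of 4C11+, paler in its replicate 3, and blue in 4C, while Ppargc1a is red in melan-a and 4C11+ and darkest blue in 4C.

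Summed on the linear scale, the members took 1.44% and 1.32% of the deposited CPM in melan-a and 1.23%, 1.02% and 0.993% in 4C. In 4C11- they took 1.42%, 1.25% and 1.05%, and in 4C11+ 1.77%, 1.79% and 1.50%. All 3 libraries of 4C11+ lay above all 8 others.

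Each gene was tested with limma over all 14272 genes and called at a Benjamini-Hochberg adjusted p under 0.05. Against the mean of the other 3 lines, 4C11+ had 40 of the 104 genes higher (38.5%), where 18.3% of all genes were higher. None of the members was lower by limma, where 15.8% of all genes were, and at an unadjusted p under 0.05 the counts were 53 higher and 1 lower. The median log2 difference was 0.46 over the members and 0.08 over all genes, and 92 of the 104 differences were positive. Among genes with a mean log2 value of at least 5, 35 of 83 members (42.2%) and 17.3% of 6055 genes were higher. Without 4C11+ replicate 1 the count of 40 became 21, and without replicate 2 it became 22. The median stayed between 0.42 and 0.55 whichever library was left out and under the 7 other settings.

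Step by step along the series, the step from 4C11- to 4C11+ held most of the calls, among the members as among all genes. There 33 members were higher and 1 was lower, where 15.6% of all genes were higher and 15.4% lower, and the medians were 0.46 for the members and 0.12 for all genes. The 33 became 17 without 4C11+ replicate 1, 18 without 4C11+ replicate 2, 19 without 4C11- replicate 2 and 21 without 4C11- replicate 3. From melan-a to 4C, 8 members were lower, where 7.55% of all genes were lower, and by limma none was higher, where 7.64% of all genes were higher (at an unadjusted p under 0.05, 20 lower and 2 higher). That share of members is close to the background, and the medians were -0.23 for the members and -0.06 for all genes. The 8 became 3 without melan-a replicate 2, 4C replicate 2 or 4C replicate 3, and 5 without 4C11- replicate 2, 4C11+ replicate 1 or 4C11+ replicate 2.

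From 4C to 4C11-, 2 members were higher, where 1.26% of all genes were higher, and by limma none was lower, where 0.406% of all genes were lower (at an unadjusted p under 0.05, 11 higher and 3 lower). The 2 were Sdhb and Ppargc1a. Their count fell to 0 without 4C replicate 2, 4C replicate 3 or 4C11- replicate 2, and to 1 without 4C11- replicate 1, 4C11+ replicate 1 or 4C11+ replicate 2. The medians were 0.20 and 0.01. Over the 3 steps, 68 members (65.4%) were called in none, as were 63.1% of all genes, and 27 (26.0%) were called only in the step to 4C11+, as higher, where 11.2% of all genes were.

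Compared with melan-a directly, 4C11+ had 16 members higher, where 8.39% of all genes were higher, and 1 lower, where 7.52% of all genes were lower. The medians were 0.41 for the members and 0.03 for all genes. The 16 became 3 without 4C11+ replicate 1, 4 without 4C11+ replicate 2, 5 without melan-a replicate 2 and 10 without 4C11- replicate 2. The lower one was Ppargc1a, whose call was lost without either melan-a library or without 4C11+ replicate 1 or 2. These comparisons share lines, so that their counts are not independent of each other.

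**Figure D2:**
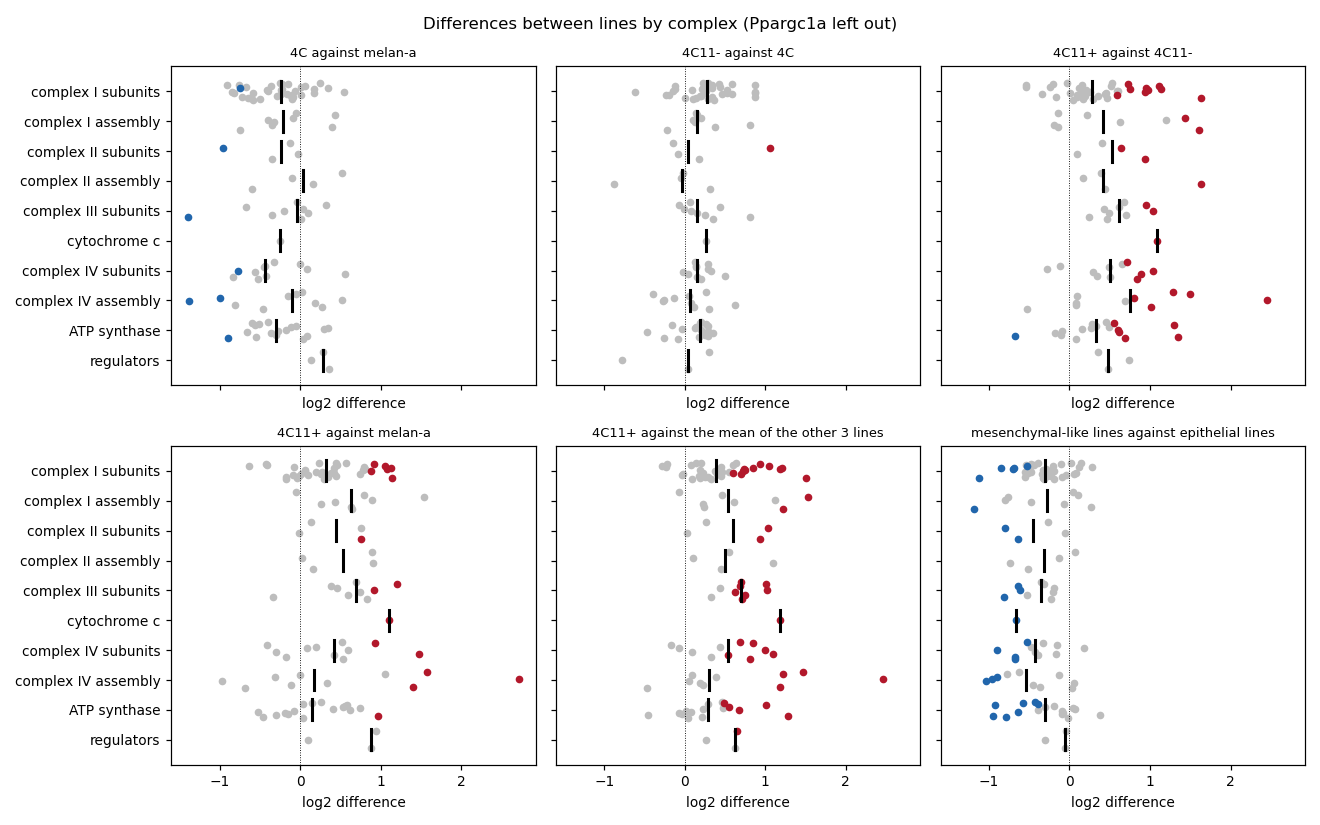
Log2 difference (horizontal axes) of each gene by complex (vertical axes) in the 6 comparisons named above the panels, with genes called higher in red, called lower in blue and not called in grey, black ticks at the median of each complex, and Ppargc1a left out for its range. The red points gather in the comparisons of 4C11+ and reach 2.72 (Cox16 against melan-a), and the step from 4C to 4C11- holds 1 red point, Sdhb.

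Among the regulators, Ppargc1a had the widest range. Its log2 values were 5.92 and 5.82 in melan-a, -2.44, -3.44 and -3.44 in 4C, -0.70, 1.20 and 0.02 in 4C11-, and 3.0, 2.81 and 4.15 in 4C11+. The lines ordered melan-a, 4C11+, 4C11-, 4C with no overlap between neighbours, but all 3 libraries of 4C and 4C11- replicate 1 were at or below 3 reads. With 4C set at 3 reads, 4C was at least 140-fold lower than melan-a. On the same setting 4C11- was 2.70-fold higher than 4C, which is no firm bound, since 4C11- replicate 1 was itself at 3 reads. These folds themselves were not tested. On the deposited values limma gave an adjusted p of 2.14e-06 for the first difference and 0.0158 for the second. The second call was lost without 4C replicate 2 or 3 or 4C11- replicate 2 (adjusted p 0.0702 to 0.0749). 4C11+ exceeded 4C11- by 3.15 ± 0.58 on the log2 scale (SE, adjusted p 0.0016) and fell below melan-a by 2.54 ± 0.64 (adjusted p 0.021). The difference from melan-a ranged in adjusted p from 0.0611 to 0.11 without either melan-a library or 4C11+ replicate 1 or 2.

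The related coactivator Ppargc1b, which was at 2.41 to 3.73 in all libraries, was not called in any of the 6 comparisons. Tfam, the factor that packages and transcribes mtDNA, was also not called, with 4.93 and 6.09 in melan-a and 6.53, 6.45 and 6.17 in 4C11+. Nrf1, which encodes nuclear respiratory factor 1, was at 5.55 and 6.31 in melan-a, 6.28, 6.53 and 5.83 in 4C, 6.41, 6.59 and 6.53 in 4C11-, and 6.95, 7.10 and 6.57 in 4C11+. It was higher in 4C11+ against the other lines together by 0.65 ± 0.22 (adjusted p 0.0394), and the libraries overlapped. This call was lost under 8 of the 18 other settings, among them leaving out melan-a replicate 2, 4C replicate 3, or replicate 2 or 3 of 4C11- (adjusted p 0.0522 to 0.0724), or replicate 1 or 2 of 4C11+ (0.147 and 0.185).

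**Figure D3:**
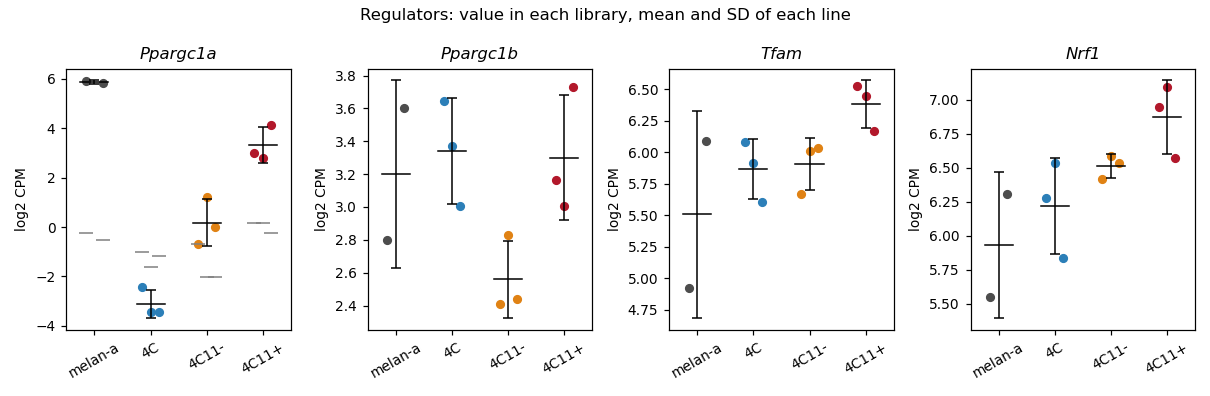
Log2 CPM (vertical axes, which differ between panels) of the 4 regulators in each library of the 4 lines, where points are libraries, black lines the mean and SD of a line, and grey dashes in the first panel the value at 3 reads in each library. Ppargc1a lies below the grey dashes in all of 4C, and the other 3 genes vary over less than 2 log2 units.

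Complex I, the NADH dehydrogenase, gave 11 of its 36 measured subunits (30.6%) higher in 4C11+ against the other lines, with a median of 0.39. It also gave 2 of 8 assembly factors (25%), with a median of 0.53, where 18.3% of all genes were higher. The largest difference among subunits was that of Ndufs8, a core subunit that carries iron-sulphur clusters. It was at 5.10 and 5.64 in melan-a, 5.26, 4.31 and 4.67 in 4C, 5.07, 4.96 and 4.62 in 4C11-, and 6.61, 6.86 and 6.07 in 4C11+, so that 4C11+ did not overlap the other lines. The difference was 1.51 ± 0.26 (adjusted p 0.001) against the other lines and 1.63 ± 0.31 (adjusted p 0.00214) against 4C11-. At the other end, Ndufc2, a membrane-arm subunit, differed by -0.03 ± 0.19.

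Of the assembly factors of complex I, Ndufaf3 was at 2.49 and 3.27 in melan-a, 3.66, 2.01 and 2.72 in 4C, 3.54, 2.80 and 2.64 in 4C11-, and 4.43, 4.31 and 4.54 in 4C11+. It was higher in 4C11+ than in the other lines by 1.53 ± 0.36 (adjusted p 0.00711). Ndufaf8 was at 3.45 and 3.44 in melan-a, 3.15, 2.60 and 2.35 in 4C, 2.12, 3.0 and 2.32 in 4C11-, and 4.27, 4.52 and 3.48 in 4C11+. It exceeded 4C11- by 1.61 ± 0.38 (adjusted p 0.00769), and its lowest 4C11+ library stood just above melan-a. Ndufaf1 differed by -0.07 ± 0.22.

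Complex II, succinate dehydrogenase, also belongs to the tricarboxylic acid cycle. Of its 4 subunits Sdhb and Sdhd were higher in 4C11+ than in the other lines (50%, where 18.3% of all genes were). Whether the subunits differ from each other was not tested. Sdhb, the iron-sulphur subunit, was at 7.79 and 7.42 in melan-a, 6.87, 6.53 and 6.54 in 4C, 7.79, 7.89 and 7.45 in 4C11-, and 8.46, 8.54 and 8.06 in 4C11+. It was lower in 4C than in melan-a by 0.96 ± 0.24 on the log2 scale (adjusted p 0.0197), higher in 4C11- than in 4C by 1.06 ± 0.22 (adjusted p 0.0321), and higher in 4C11+ than in 4C11- by 0.64 ± 0.22 (adjusted p 0.0417). The first call was lost without melan-a replicate 2 or 4C replicate 2 or 3 (adjusted p 0.0586 to 0.124), and each of the others under 7 of the 18 other settings. The second was lost without replicate 2 or 3 of 4C or replicate 1 or 2 of 4C11- or of 4C11+ (0.0592 to 0.155), and the third without replicate 2 or 3 of 4C or of 4C11- or replicate 1 or 2 of 4C11+ (0.0507 to 0.157). It was the gene besides Ppargc1a that was called in all 3 steps.

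Sdhd, a membrane anchor that binds ubiquinone, was at 7.21 and 7.14 in melan-a, 7.16, 6.70 and 6.62 in 4C, 7.21, 6.94 and 6.86 in 4C11-, and 8.07, 8.01 and 7.71 in 4C11+. It was higher in 4C11+ than in the other lines by 0.93 ± 0.18 (adjusted p 0.0018). The flavoprotein Sdha, at 7.43 to 8.12 over the libraries, and the other anchor Sdhc, at 6.21 to 7.68, were not called in any comparison, and against the other lines they differed by 0.27 ± 0.16 and 0.03 ± 0.27. None of the 4 assembly factors was called by limma against the other lines, and 1 had an unadjusted p under 0.05. Sdhaf3 was higher in 4C11+ than in 4C11- by 1.63 ± 0.53 (adjusted p 0.0373), where 4C11- replicate 1 was at 1.26 and its replicates 2 and 3 at 3.34 and 3.18, and without that replicate 1 the difference was 0.96 (adjusted p 0.0857). The call was also lost without any 1 of the libraries of 4C or 4C11+ (0.0507 to 0.104). Sdhaf2 differed from the other lines by 0.10 ± 0.18.

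Complex III, which passes electrons from ubiquinol to cytochrome c, had 7 of its 9 genes (77.8%) higher in 4C11+ than in the other lines. Of all genes 18.3% were higher, and the median of the complex was 0.70. Uqcrc1, a core protein of the complex whose window is printed above, was at 7.77 and 7.58 in melan-a, 8.08, 7.34 and 7.03 in 4C, 7.75, 7.58 and 7.35 in 4C11-, and 8.64, 8.63 and 8.52 in 4C11+. The 4C11+ libraries lay close together above all others, by 1.02 ± 0.21 on the log2 scale (adjusted p 0.00309). Uqcr10, a small subunit, differed from melan-a by 1.21 ± 0.28 (adjusted p 0.0154), and Cyc1, which encodes cytochrome c1, from the other lines by 0.70 ± 0.21 (adjusted p 0.0246). Without 4C11+ replicate 1 or 2 both calls were lost, Uqcr10 at 0.0662 and 0.0651 and Cyc1 at 0.113 and 0.118, and without melan-a replicate 2 that of Uqcr10 was lost at 0.0754.

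Uqcrh, the hinge protein next to cytochrome c1, was at 8.30 and 7.66 in melan-a, 6.79, 6.31 and 6.65 in 4C, 7.52, 7.47 and 7.21 in 4C11-, and 7.64, 7.77 and 7.53 in 4C11+. It was lower in 4C than in melan-a by 1.39 ± 0.25 on the log2 scale (adjusted p 0.00247), and 4C11+ differed from the other lines by 0.32 ± 0.18 (adjusted p 0.2). The 4C libraries lay below all others.

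Cytochrome c is encoded by Cycs in these cells. It was at 6.02 and 7.10 in melan-a, 6.49, 6.41 and 6.04 in 4C, 6.64, 6.59 and 6.50 in 4C11-, and 7.63, 7.63 and 7.72 in 4C11+. The 3 libraries of 4C11+ lay within 0.1 of each other and above all 8 others, by 1.18 ± 0.22 (2.26-fold, adjusted p 0.00167).

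Complex IV, cytochrome c oxidase, had 6 of its 11 measured nuclear subunits (54.55%) higher in 4C11+ than in the other lines. Of all genes 18.3% were higher, and the median of these subunits was 0.54. Ndufa4, first assigned to complex I and now placed in complex IV, was at 7.87 and 7.98 in melan-a, 7.46, 7.40 and 7.37 in 4C, 7.54, 7.77 and 7.54 in 4C11-, and 8.51, 8.53 and 8.33 in 4C11+, higher by 0.81 ± 0.14 (adjusted p 0.00104). Cox7b was at 6.69 and 6.76 in melan-a, 7.17, 7.23 and 7.45 in 4C, 6.90, 7.53 and 7.53 in 4C11-, and 8.26, 8.12 and 8.23 in 4C11+. Unlike most members its lowest libraries were those of melan-a, against which 4C11+ was higher by 1.48 ± 0.23 (adjusted p 0.00167).

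Several subunits of complex IV have paralogs with tissue-restricted expression. Cox7a2, the widely expressed form, was at 7.33 and 7.03 in melan-a, 6.49, 6.25 and 6.48 in 4C, 6.92, 6.73 and 6.58 in 4C11-, and 7.92, 7.87 and 7.55 in 4C11+. It was lower in 4C than in melan-a by 0.77 ± 0.22 on the log2 scale (adjusted p 0.0363) and higher in 4C11+ than in the other lines by 1.0 ± 0.17 (adjusted p 0.000779). The first of these calls was lost under 8 of the 18 other settings, among them leaving out melan-a replicate 2 (adjusted p 0.181), any library of 4C, 4C11- replicate 2 or 4C11+ replicate 1 or 2 (0.0546 to 0.128). Its relative Cox7a2l, known for joining complexes III and IV, differed by 0.08 ± 0.28 with an adjusted p of 0.84. Cox6a1, Cox6b1 and Cox8a were not called against the other lines, with differences of -0.17 ± 0.21, 0.44 ± 0.18 and 0.33 ± 0.20. Cox6c had the smallest difference of the complex, -0.07 ± 0.18. The paralogs Ndufa4l2, Cox6a2, Cox6b2, Cox7a1, Cox7b2, Cox8b and Cox8c were not analysed here.

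Assembly of complex IV needs heme A and copper. Of its 10 measured factors 4 (40%) were higher in 4C11+ than in the other lines, where 18.3% of all genes were. The median of the 10 was 0.31. The higher ones were Cox16, Cox10, Cox11 (lost without 4C11+ replicate 1, adjusted p 0.0624) and Sco1. Cox16 was at 1.87 and 0.75 in melan-a, 2.32, 2.01 and 1.18 in 4C, 1.57, 1.58 and 1.59 in 4C11-, and 4.19, 4.39 and 3.52 in 4C11+. It was higher in 4C11+ by 2.46 ± 0.36 (5.49-fold, adjusted p 0.000359), the largest difference among the members that were above 3 reads in all libraries. For Ppargc1a the same difference is known only as at least 3.32-fold, with 4C set at 3 reads. In the annotation 56.8% of the exonic bases of Cox16 are shared with Gm20498, a gene on the same strand. How reads in shared exons were assigned is not given in the sources used here.

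Cox10 makes heme O, the precursor of heme A, and Sco1 is a copper chaperone. Both are hubs of a co-expression module that the study built from these same libraries, so that their direction is no independent evidence. Cox10 was at 4.19 and 5.15 in melan-a, 5.47, 4.53 and 4.06 in 4C, 5.20, 4.97 and 4.68 in 4C11-, and 6.61, 6.59 and 5.51 in 4C11+, higher than in the other lines by 1.47 ± 0.35 (adjusted p 0.00765). Its replicate 3 of 4C11+ was just above the highest 4C library, and without replicate 1 or 2 of 4C11+ the adjusted p was 0.0545 and 0.053. Sco1 was at 4.57 and 5.06 in melan-a, 5.46, 4.93 and 4.87 in 4C, 5.51, 5.12 and 4.99 in 4C11-, and 6.29, 6.38 and 5.97 in 4C11+, higher by 1.18 ± 0.22 (adjusted p 0.00172). The 4C11+ libraries of Sco1 overlapped no other.

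Cox17, which hands copper to Sco1 and Cox11, was at 4.84 and 4.50 in melan-a, 3.09, 3.39 and 3.39 in 4C, 3.37, 2.60 and 3.08 in 4C11-, and 3.60, 3.62 and 3.89 in 4C11+. The gene was highest in melan-a, from which 4C fell by 1.38 ± 0.33 (adjusted p 0.0148, and 0.0859 without melan-a replicate 2), and 4C11+ differed from the other lines by 0.05 ± 0.25 and from 4C11- by 0.69 ± 0.30 (adjusted p 0.1). Whether it differs from Sco1 or Cox11 was not tested. Cox15, which turns heme O into heme A, was at 6.05 and 6.61 in melan-a, 5.62, 5.22 and 5.19 in 4C, 5.55, 5.25 and 4.85 in 4C11-, and 5.96, 6.12 and 5.99 in 4C11+. It fell from melan-a to 4C by 0.99 ± 0.29 (adjusted p 0.0368) and was higher in 4C11+ than in 4C11- by 0.81 ± 0.26 (adjusted p 0.0323), calls lost under 7 and 5 of the 18 other settings. The first was lost without melan-a replicate 3 (adjusted p 0.211), replicate 2 or 3 of 4C, 4C11- replicate 2 or 4C11+ replicate 1 or 2 (0.0591 to 0.118), and the second without replicate 2 or 3 of 4C11- or any library of 4C11+ (0.0577 to 0.11). Surf1, another assembly factor, was at 4.43 to 4.55 in 4C11+ and 4.46 to 5.70 elsewhere and was not called, with -0.47 ± 0.28 (adjusted p 0.209). Sco2 was not analysed here.

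**Figure D4:**
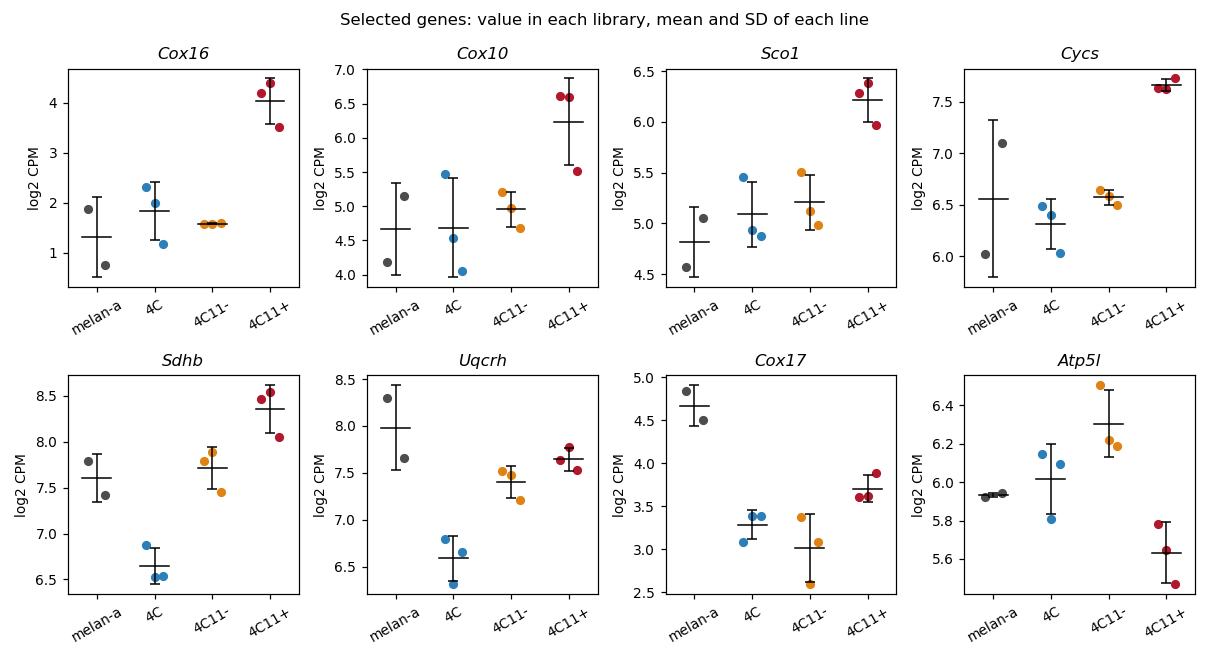
Log2 CPM (vertical axes, which differ between panels) of 8 genes in each library of the 4 lines, where points are libraries and black lines the mean and SD of a line. In the panels of Cox16, Cox10, Sco1 and Cycs the 4C11+ points lie above all others, Sdhb and Uqcrh are lowest in 4C, Cox17 is highest in melan-a and Atp5l is lowest in 4C11+.

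The ATP synthase had 5 of its 17 genes (29.4%) higher in 4C11+ than in the other lines, where 18.3% of all genes were. Its median was 0.29. Atp5mpl, a small membrane proteolipid of the enzyme, was at 6.41 and 6.70 in melan-a, 6.16, 5.97 and 5.90 in 4C, 6.20, 6.23 and 6.13 in 4C11-, and 7.66, 7.52 and 7.41 in 4C11+. It was higher by 1.28 ± 0.16 (2.43-fold, adjusted p 9.01e-05), the smallest p of any member in this comparison. Atp5d, the delta subunit of the central stalk, was at 7.12 and 7.03 in melan-a, 7.0, 6.30 and 6.25 in 4C, 6.92, 6.03 and 6.15 in 4C11-, and 7.78, 7.77 and 7.42 in 4C11+, higher by 1.01 ± 0.24 (adjusted p 0.00657).

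The genes Atp5g1, Atp5g2 and Atp5g3 encode the same mature c subunit of the membrane ring. Atp5g3 was at 8.16 and 8.35 in melan-a, 8.40, 7.98 and 7.85 in 4C, 8.43, 8.35 and 8.04 in 4C11-, and 9.03, 8.95 and 8.65 in 4C11+, higher by 0.68 ± 0.17 (adjusted p 0.0103, and 0.0729 and 0.06 without 4C11+ replicate 1 or 2). The other two were not called, with 0.47 ± 0.19 for Atp5g1 (adjusted p 0.078) and 0.22 ± 0.21 for Atp5g2 (adjusted p 0.436), and whether the 3 genes differ from each other was not tested. Atp5l, the g subunit, was the member that fell from 4C11- to 4C11+. It was at 6.50, 6.22 and 6.19 in 4C11- and 5.78, 5.65 and 5.47 in 4C11+, lower by 0.67 ± 0.21 on the log2 scale (adjusted p 0.0281), a call lost without any 1 of the 3 libraries of 4C11+ or without replicate 1 or 2 of 4C11-. Atp5h differed from the other lines by 0.01 ± 0.18.

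The 8 members lower in 4C than in melan-a (7.69%, close to the 7.55% of all genes) were Ppargc1a, Uqcrh, Cox17, Cox15, Sdhb, Atp5o, Cox7a2 and Ndufa9. Atp5o, the stalk protein that confers oligomycin sensitivity, was at 9.18 and 8.71 in melan-a, 8.29, 7.91 and 7.97 in 4C, 8.0, 7.84 and 7.54 in 4C11-, and 8.51, 8.61 and 8.32 in 4C11+, and the fall was 0.89 ± 0.23 (adjusted p 0.0231). The annotation holds 2 genes with this symbol that share exonic bases, and the other one was not analysed here. Ndufa9, a subunit near the quinone site of complex I, was at 7.43 and 7.42 in melan-a and 6.77, 6.74 and 6.52 in 4C, where it fell by 0.75 ± 0.22 (adjusted p 0.0379). The call of Atp5o was lost without melan-a replicate 2 or 4C replicate 2 or 3 (adjusted p 0.0648 to 0.158). That of Ndufa9 was lost without any library of melan-a or 4C, 4C11- replicate 2 or 4C11+ replicate 1 or 2 (0.0544 to 0.112).

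Lines of mesenchymal look were set against lines of epithelial look in a separate comparison. In 4C and 4C11- 27 members (26.0%) were lower than in melan-a and 4C11+, where 15.3% of all genes were lower, and none was higher by limma, where 14.3% of all genes were higher (at an unadjusted p under 0.05, 44 lower and 1 higher). The medians were -0.34 for the members and -0.09 for all genes, and the 27 became 17 without 4C11+ replicate 1. The library medians of the members in 4C11- (6.57, 6.29 and 6.14) overlapped those in melan-a (6.39 and 6.25), and these 2 lines were not tested against each other. The ATP synthase gave 7 of 17 genes (41.2%) and complex III 3 of 9 (33.3%). Complex IV gave 4 of 11 subunits (36.4%) and 3 of 10 assembly factors (30%). Complex I gave 5 of 36 subunits (13.9%), close to the 15.3% of all genes, and 1 of 8 assembly factors (12.5%). Complex II gave 2 of 4 subunits (50%) and 0 of 4 assembly factors, and the regulators gave 1 of 4 (25%). Cycs was lower too, a call lost under 3 of the 18 other settings. Ppargc1a was at least 35.2-fold lower with 4C set at 3 reads, and limma on the deposited values, without that bound, gave an adjusted p of 7.67e-07. Next in size were Ndufaf8 (-1.18 ± 0.29, adjusted p 0.00869), Cox17 (-1.03 ± 0.22, adjusted p 0.00412), Atp5mpl (-0.95 ± 0.14, adjusted p 0.000327), Atp5d (-0.93 ± 0.21, adjusted p 0.0061) and Cox7a2 (-0.91 ± 0.15, adjusted p 0.000697) among those whose libraries did not overlap.

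Of the 13 subunits encoded by mtDNA 11 had a value. In 4C11+ against the other lines 1 was higher (9.09%, where 18.3% of all genes were) and 2 were lower (18.2%, where 15.8% of all genes were), with a median of -0.17 and 2 of 11 differences positive. Against 4C11- the median was 0.09, with 8 of 11 differences positive and mt-Atp6 alone called, higher by 1.73 (adjusted p 0.00924). Whether the mtDNA-encoded genes differ from the nuclear ones was not tested. Mt-Co1, the catalytic core of complex IV, was at 12.63 and 12.99 in melan-a, 12.99, 12.63 and 12.99 in 4C, 11.91, 12.63 and 12.85 in 4C11-, and 11.91, 11.81 and 12.20 in 4C11+. It was lower in 4C11+ than in the other lines by 0.74 on the log2 scale (adjusted p 0.0159), and mt-Nd1, a core subunit of complex I, was lower by 0.62 (adjusted p 0.0421). Mt-Atp6 was higher by 1.15 (adjusted p 0.0264), at 2.96, 2.86 and 2.14 in 4C11+ and 0.24 to 2.19 elsewhere. All 3 calls were lost without 4C11+ replicate 1 or 2 (adjusted p 0.0753 to 0.191), and that of mt-Nd1 also without any library of 4C, melan-a replicate 3 or 4C11- replicate 2 (0.0549 to 0.0685). Mt-Nd3, mt-Co2, mt-Co3 and mt-Atp6 stood between -1.50 and 3.80 over the libraries. How reads shared with nuclear copies of mtDNA were counted is not given in the sources used here. The deposited values may depend on rank throughout, and those of the most abundant genes do, since all 11 libraries share 1 highest value.

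**Figure D5:**
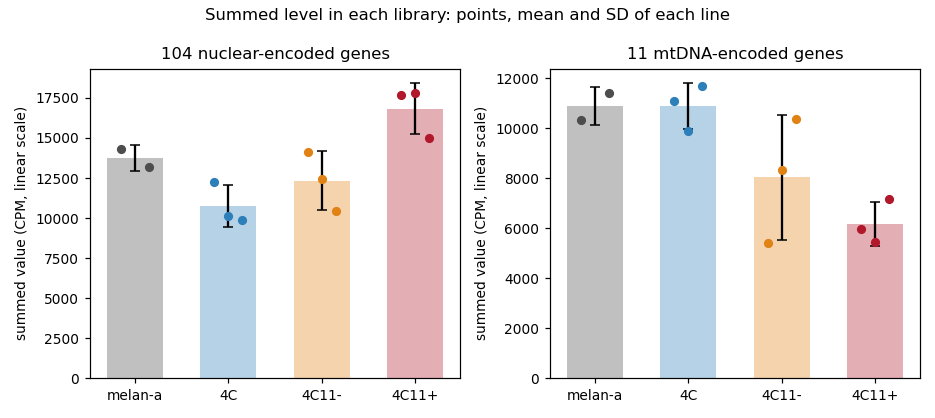
Summed CPM on a linear scale (vertical axes) of the 104 nuclear-encoded genes and of the 11 mtDNA-encoded genes, where points are libraries and bars the mean with SD of each line. The nuclear sum of 4C11+, 14990 to 17801 CPM, lies above that of every other library, while its mtDNA sum, 5431 to 7151 CPM, lies below melan-a and 4C and overlaps 4C11-, whose libraries range from 5396 to 10369 CPM.

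Genes of the same complexes that the symbol pattern leaves out, 32 of 35 with a value, gave 7 higher and 2 lower in 4C11+ against the other lines, with a median of 0.14. These are 21.9% and 6.25%, where 18.3% of all genes were higher and 15.8% lower, so that the share higher is close to the background. The higher ones included Fmc1, an assembly factor of the ATP synthase (1.10 ± 0.32, adjusted p 0.0189), and Ndufab1, the acyl carrier protein of complex I (0.62 ± 0.18, adjusted p 0.0214). The lower ones were Cmc1, a factor of complex IV assembly (-0.69 ± 0.19, adjusted p 0.0171), and Acad9, of complex I assembly (-0.51 ± 0.18, adjusted p 0.0486). Fmc1 and Ndufab1 lost their calls without 4C11+ replicate 1 or 2 (adjusted p 0.0677 to 0.14), and Cmc1 without replicate 2 or 3 (0.078 and 0.0582). Acad9 kept its call only without 4C replicate 3 or 4C11- replicate 1 among the libraries left out (0.0547 to 0.186 without any other).

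Of 12 genes that express or copy mtDNA or act beside the PGC-1 coactivators, 1 was higher (8.33%) and 2 were lower (16.7%) in that comparison, where 18.3% of all genes were higher and 15.8% lower. The higher one was Esrra, the nuclear receptor through which PGC-1alpha acts on many of these genes. It was at 5.43 and 5.88 in melan-a, 4.33, 3.84 and 3.96 in 4C, 4.72, 3.86 and 3.69 in 4C11-, and 5.03, 5.34 and 5.68 in 4C11+. The 2 epithelial lines did not overlap the 2 mesenchymal ones, the difference was -1.44 ± 0.24 (adjusted p 0.000831), and melan-a and 4C11+ overlapped each other. Against the other lines 4C11+ was higher by 0.75 (adjusted p 0.049), a call lost under 11 of the 18 other settings and kept, among libraries left out, only without melan-a replicate 3, 4C replicate 1 or 4C11- replicate 1. The lower ones were the mtDNA polymerase gene Polg (-0.80 ± 0.20, adjusted p 0.0101) and the mtDNA helicase gene Twnk (-0.84 ± 0.24, adjusted p 0.0175), both of which lost the call without 4C11+ replicate 1 or 2 (0.0568 to 0.103).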

How the data were processed

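Reads of 11 stranded total RNA libraries (paired, 100 bases) were trimmed with Trimmomatic, mapped with STAR to GRCm38 (Ensembl 90) and assigned to genes with Rsubread, and genes that reached 1 CPM in fewer than 4 libraries were dropped. The authors then applied voom of limma, and the deposited values are log2 CPM, which are not read counts. The libraries share 1 highest value, as after quantile normalization. Rsubread's strand and multi-mapping settings, which bear on genes with processed pseudogenes, and tool versions are not given in the sources used here. Whether reads of overlapping genes were dropped is not given either, and 7 members share exonic bases with another gene on their strand.

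Values were fitted as deposited in limma 3.58.1 (R 4.3.3), with a mean-variance trend, a mean for each line, two-sided tests and Benjamini-Hochberg adjustment over 14272 genes, of which 24 had no symbol. Comparisons that join lines used means of line means. Counts, medians and motif searches were made in Python 3.11.15 with pandas 2.3.3 and NumPy 2.4.6. The fit was tested on simulated data. Replicate numbers come from the labels, and same-numbered libraries were treated as separate cultures. For a line at or below 3 reads in all libraries, folds were taken from the value at 3 reads, and p-values are those of the deposited values. Such folds are bounds where every library of the other side lay above 3 reads. The members, lists and tests were chosen with earlier results of these data known. Named were up to 5 called members per direction and comparison with the largest differences and no overlap, the regulators, cytochrome c genes, Sdha to Sdhd, Sco1, Sco2, Cox10, Surf1, paralog groups, and the largest and smallest difference of each complex. Cox11 and genes of the other lists were named after their values were seen. Alternatives covered normalization, filtering, a replicate block, other variance models and each library left out. Depth is approximate, and intervals for single values were not computed.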

Additional observations from a re-analysis of the deposited data

How the results depend on the processing

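Direction held for all of the medians and named calls under every setting tried, and 1851 of the 2142 repeats of named calls stayed past the threshold, with 291 lost. Without the mean-variance trend, 4 members were lower in 4C than in melan-a, 1 was higher in 4C11- than in 4C, and 10 were higher in 4C11+ than in melan-a. With the replicate number as a block, 9 members were higher in 4C11+ than in melan-a and 1 was lower in 4C11+ than in the other lines. The labels give same-numbered libraries nothing shared but the number. Their deviations from line means correlated between -0.226 and 0.388, over 0.1 in 8 of 15 pairs, so that pairing was not established. Leaving out single libraries gave 3 to 11 members lower in 4C than in melan-a, 0 to 2 higher in 4C11- than in 4C, 17 to 38 higher and 0 to 1 lower in 4C11+ than in 4C11-, 3 to 23 higher and 0 to 2 lower in 4C11+ than in melan-a, 21 to 46 higher in 4C11+ than in the other lines, and 17 to 37 lower in the mesenchymal lines. A filter at a mean log2 value of 1 and robust variance estimates lost no named call. Equal medians of genes with a mean of at least 5 (chosen after seeing the data) lost 1, Esrra in 4C11+ against the other lines. Further quantile normalization and equal sums also lost none, but could hardly have done so. The deposited libraries already share 1 highest value, with nearly equal medians and sums. Those 2 settings therefore say little about normalization, and their 119 repeats each are counted among the 1851. With 2 or 3 libraries per line, small differences stay below detection, and melan-a rests on 2.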

Other observations

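Enzymes of the tricarboxylic acid cycle, which supplies NADH and succinate to complexes I and II, were measured for all 13 genes of a fixed list, complex II aside. Against the mean of the other lines, 3 were higher in 4C11+ by limma (23.1%, where 18.3% of all genes were) and none was lower (15.8% of all genes), at an unadjusted p under 0.05 there were 7 and 0, and the median was 0.37. Idh3a, the catalytic subunit of the NAD-dependent isocitrate dehydrogenase, was at 6.78 and 7.61 in melan-a, 6.70, 6.26 and 6.10 in 4C, 6.48, 6.28 and 6.75 in 4C11-, and 7.76, 7.65 and 8.03 in 4C11+, higher by 1.13 ± 0.22 (adjusted p 0.00218). Cs, the citrate synthase gene, was at 8.15 and 9.08 in melan-a, 8.18, 7.67 and 7.57 in 4C, 8.20, 8.0 and 8.02 in 4C11-, and 8.98, 8.94 and 9.06 in 4C11+, so that melan-a replicate 3 reached 4C11+. It was higher in 4C11+ by 0.83 ± 0.21 (adjusted p 0.00952), and Ogdh, of the oxoglutarate dehydrogenase complex, by 0.67 ± 0.19 (adjusted p 0.0198, and 0.0735 and 0.0801 without 4C11+ replicate 2 or 3).

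Of the other subunits of the isocitrate dehydrogenase, Idh3b was highest in melan-a, at 7.94 and 7.57, and lower in 4C by 0.88 ± 0.24 on the log2 scale (adjusted p 0.0293, and 0.051 to 0.167 without melan-a replicate 2, any library of 4C, 4C11- replicate 2 or 4C11+ replicate 1). Idh3g was at 6.49 in both melan-a libraries and 6.75 to 7.19 elsewhere, with no call. Whether the 3 subunits differ from each other was not tested.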
